A study of Mus musculus with 8 samples.

Results

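Wnt signaling genes were followed in rib chondrocytes of mouse embryos: 41 genes, of 18193 named by the arrays, for ligands, receptors, antagonists, transcription factors and targets of the pathway. The transgenic group was made of 4 pools of Hoxd4 transgenic embryos and the control group of 4 pools of wild type embryos, all of strain FVB at E18.5 (days after mating), with 1 transgenic and 1 control pool from each of 4 litters and 1 array per pool. Rib cages were digested with collagenase and trypsin, and the dissociated primary cells were filtered and lysed for RNA, with no culture step described. The labels name neither the promoter behind the transgene, nor the transgenic line, nor how many embryos made up a pool. Each gene was read from the probe set annotated to its symbol alone, the brightest by mean over all 8 arrays where there were several. This gave a value for 40 genes. Tcf7 had no such probe set and is not analysed here.

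Wnt ligands are secreted lipid-modified proteins that bind Frizzled receptors. With the co-receptors Lrp5 and Lrp6 they stop the destruction of beta-catenin, which then enters the nucleus and activates targets with the LEF/TCF factors. Other routes, through Ror2, Ryk and Frizzled alone, act without beta-catenin on cell shape and polarity. In developing cartilage, strong beta-catenin signaling holds back chondrocyte differentiation and later promotes hypertrophy, and Wnt5a and Wnt5b are known from the growth plate, where they act mainly without beta-catenin. Secreted Frizzled-related proteins, of which Frzb was first isolated from cartilage, keep ligands from their receptors.

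The values are MAS5 signals, a linear brightness scaled by the authors to a trimmed mean of 500 on every array. Signals of different genes come from different probes and are not set against each other. Fold changes are transgenic minus control on the scale log2(signal + 32), with 95% intervals, from limma over 22518 probe sets whose mean lay above the median, and p-values were adjusted over all of them. Of the 40 genes 36 were bright enough for the test, and Wnt2, Wnt16, Lrp5 and Dkk1 were not. Median signals per array lay between 100.5 and 115, and rank correlations between arrays between 0.932 and 0.942. The number of arrays limits the precision.

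The cells carried the marks of cartilage. All 15 chondrocyte markers on the array, among them the collagen genes Col2a1 and Col9a1, the proteoglycan gene Acan and the transcription factor gene Sox9, were above the filter, and their summed signal lay between 370497 and 398790 in transgenic arrays and between 352525 and 387851 in control arrays. Markers of other rib cells were present too: 9 of 9 genes of perichondrium and fibroblasts, 10 of 10 of muscle and 9 of 10 of endothelium passed the filter, against 2 of 7 of epidermis. In a bulk digest, fewer cells of a type and less RNA per cell cannot be told apart. Hoxd4, the gene of the transgene, has no probe set of its own, since both are shared with its neighbour Hoxd3. The brighter gave 94.1, 415, 172 and 13.0 in the transgenic arrays of litters 1 to 4, against 27.3, 42.6, 4.10 and 256 in the control arrays, a log2 fold change of 0.87 (95% interval -0.54 to 2.28; exact permutation p = 0.40). The other, too dim for the test, gave -0.12 (95% interval -0.64 to 0.40) and was higher in 2 of 4 litters. The arrays thus do not show higher Hoxd4 by a test, litter 4 has its control array above its transgenic one, and every direction below is that of the libraries labelled transgenic and control. Xist, the RNA of the inactive X chromosome, gave 79.8, 3266, 47.2 and 8209 in the transgenic arrays and 5778, 9945, 13760.0 and 8098 in the control arrays, and Eif2s3y, a Y-linked gene, was higher in the transgenic array of 4 of 4 litters (log2 fold change 0.92). The makeup of the pools by sex thus moved with the label beside all values below, and its part in them was not tested beyond the fit with Xist as a covariate.

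No Wnt pathway gene passed the test between the labels. Of the 36 tested genes 0 had an adjusted p under 0.05 in limma (0% of all probe sets did), with a lowest adjusted p of 0.9997, and 0 had an unadjusted p under 0.05, against 3.29% of all probe sets. For no tested probe set chosen for a gene did the signals of the 4 transgenic arrays lie wholly outside those of the 4 control arrays, which was so for 2.27% of all probe sets. The fold changes were centred near 0, with a median of -0.03 on the log2 scale against 0.003 over all probe sets, and ran between -0.39 (Wnt5b) and 0.32 (Axin2). Of the genes 12 were higher and 24 lower (66.7%), where 48.8% of all probe sets were lower. Many of these signs rest on small differences, and between 1 and 10 of the 36 genes changed sign when a single array was left out, and between 3 and 9 without a single litter. The intervals of this fit are on the scale with the added constant, which shrinks changes of dim genes. On that scale all 36 chosen probe sets stayed inside 2-fold either way, as did 98.7% of all probe sets. Inside 1.5-fold stayed 31 (86.1%, against 85.5% of all probe sets), the exceptions being Wnt5b, Fzd6, Dkk3, Sfrp5 and Axin2. These limits do not bound the change of the signal itself or of other probe sets of the same genes. Among those too dim for the test, intervals with no filter reached -1.78 for Fzd6 and 1.21 for Kremen1.

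**Figure D1:**
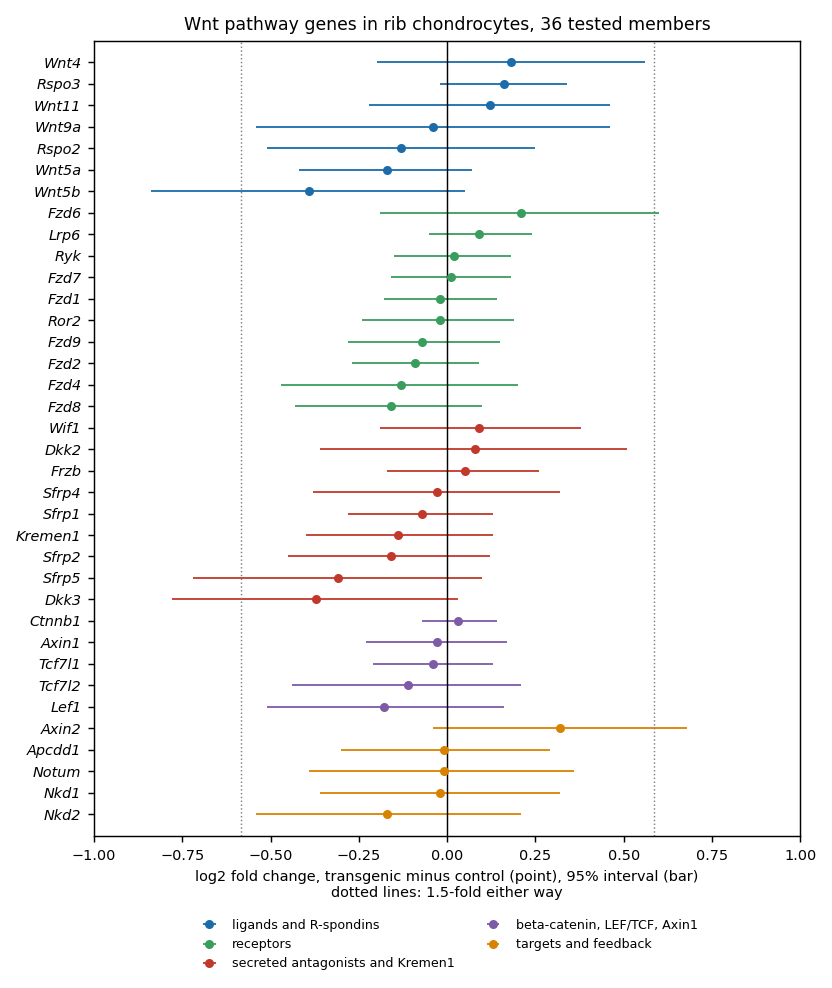
Log2 fold change (transgenic minus control, x axis) with its 95% interval for each of the 36 tested genes (rows), coloured by role, from limma with 4 arrays per label. Every interval crosses 0, and 31 of 36 stay within the dotted lines at 1.5-fold.

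Litter numbers pair the arrays, and 10 of the 36 genes (27.8%) differed the same way in all 4 litters, where 13.4% of all probe sets did. The 3 higher in transgenic arrays were Rspo3, Fzd6 and Lrp6, and 6.83% of all probe sets were of this kind. The 7 lower were Fzd8, Fzd9, Sfrp2, Dkk3, Kremen1, Lef1 and Nkd2, and 6.6% of all probe sets were. The differences were small, from -0.37 to 0.21 on the log2 scale. For Fzd6, Lrp6, Nkd2, Kremen1 and Lef1 some other probe sets ran the other way. Probe sets too dim for the test gave 0.29, higher in 4 of 4 litters, and -0.03 for Nkd2. Those of Kremen1 gave 0.37 and -0.01, and that of Lef1 gave 0.35. Those of Fzd6 were too dim for the test: one was at -0.17, lower in 3 of 4 litters, and one gave 10.0, 8.44, 36.4 and 17.1 in transgenic arrays, against 120, 71.7, 84.9 and 57.4 in control arrays, at -1.21 with an adjusted p of 1.0 in limma with no filter. The groups of that last probe set did not overlap. The share without overlap, 2.27%, was counted among tested probe sets only, so it gives no background for one this dim. With the litter as a block in the fit, 0 passed the adjusted threshold (0% of all probe sets, lowest adjusted p among the genes 0.82), and 2 genes, Dkk3 and Rspo3, had an unadjusted p under 0.05, against 5.54% of all probe sets. That share is 2 of 36, close to the background.

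Among ligands and their amplifiers, 7 of 9 were tested, 3 higher and 4 lower, with a median of -0.04. Rspo3, an R-spondin that strengthens Wnt signaling by keeping Frizzled receptors at the cell surface, gave signals of 2236, 1952, 2074 and 1919 in the transgenic arrays of litters 1 to 4, against 2034, 1867, 1686 and 1717 in the control arrays. The transgenic array was brighter in every litter, while the groups overlapped, since the control array of litter 1 was above the transgenic arrays of litters 2 and 4. Its log2 fold change was 0.16 (95% interval -0.02 to 0.34; exact permutation p = 0.114, two-sided, over all 70 assignments of the labels, which can give no p under 0.0286). Swapping labels only within litters allows 16 assignments and no p under 0.125, which is the exact permutation p so obtained for Rspo3, Fzd6, Lrp6, Fzd8, Dkk3, Lef1 and Nkd2. A gene that runs the same way in every litter always reaches this floor, so the value adds nothing to the count of litters. Leaving out single arrays or litters gave 0.12 to 0.21 for Rspo3. With the litter as a block the unadjusted p was 0.028 and the adjusted p 0.87 in limma. Adding Xist to the fit gave 0.06.

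Wnt5b, a ligand of the growth plate that acts mainly without beta-catenin, gave 158, 66.2, 112 and 116 in the transgenic arrays, against 131, 163, 159 and 163 in the control arrays. Transgenic arrays were dimmer in litters 2, 3 and 4 and brighter in litter 1. The log2 fold change was -0.39 (95% interval -0.84 to 0.05; exact permutation p = 0.0571). It was -0.22 without transgenic replicate 2, the lowest array, -0.60 without litter 1, -0.19 without litter 2 and -0.60 with Xist in the fit (unadjusted p 0.044, adjusted p 0.98 in limma). The mean of both its probe sets gave -0.13. The choice between its 2 probe sets rested on mean signals of 133 and 131 over all arrays, and the one not chosen gave 0.13 (95% interval -0.51 to 0.77), so the direction was not shared by both. Its relative Wnt5a averaged 361 ± 33.1 in transgenic arrays and 411 ± 35.1 in control arrays (SD, n = 4 each), which is -0.17 on the log2 scale (95% interval -0.42 to 0.07), with a further tested probe set at -0.01. Wnt4, Wnt9a and Wnt11 lay between -0.04 and 0.18, and Rspo2 at -0.13. The dim genes Wnt2 and Wnt16 stayed at or below 62.1 on every array and were not tested.

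Of the 11 receptors and co-receptors 10 were tested, 4 higher and 6 lower, with a median of -0.02. Lrp6, the co-receptor that recruits Axin to the membrane, gave 2457, 2579.8, 2475 and 2496 in transgenic arrays, against 2154, 2505, 2298 and 2419.6 in control arrays. The transgenic arrays lay close together and each was brighter than the control array of its litter, by little in litters 2 and 4. The log2 fold change was 0.09 (95% interval -0.05 to 0.24; exact permutation p = 0.114), and another probe set of Lrp6 gave -0.15. Leaving out single arrays or litters gave 0.06 to 0.13. Fzd8, a Frizzled receptor of the beta-catenin route, gave 569.5, 811, 705 and 556 in transgenic arrays, against 691, 819, 769 and 667 in control arrays. Each transgenic array was dimmer than its litter's control, but litters 2 and 3 were bright and litters 1 and 4 dim in both groups. The log2 fold change was -0.16 (95% interval -0.43 to 0.10; exact permutation p = 0.343), and its other tested probe set gave -0.14. It was -0.26 without transgenic replicate 2 and -0.09 without transgenic replicate 4. Fzd6 and Fzd9 were at 0.21 and -0.07. Fzd1, Fzd2, Fzd4, Fzd7, Ror2 and Ryk ran from -0.13 to 0.02, with Ror2 and Ryk being receptors of the routes without beta-catenin. Another tested probe set of Ryk gave -0.08 (95% interval -0.23 to 0.07), lower in 4 of 4 litters. Its groups did not overlap, at 1366 to 1473 in transgenic arrays and 1502 to 1526 in control arrays, as in 2.27% of all probe sets. Lrp5 was too dim, at 12.3 to 145.

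**Figure D2:**
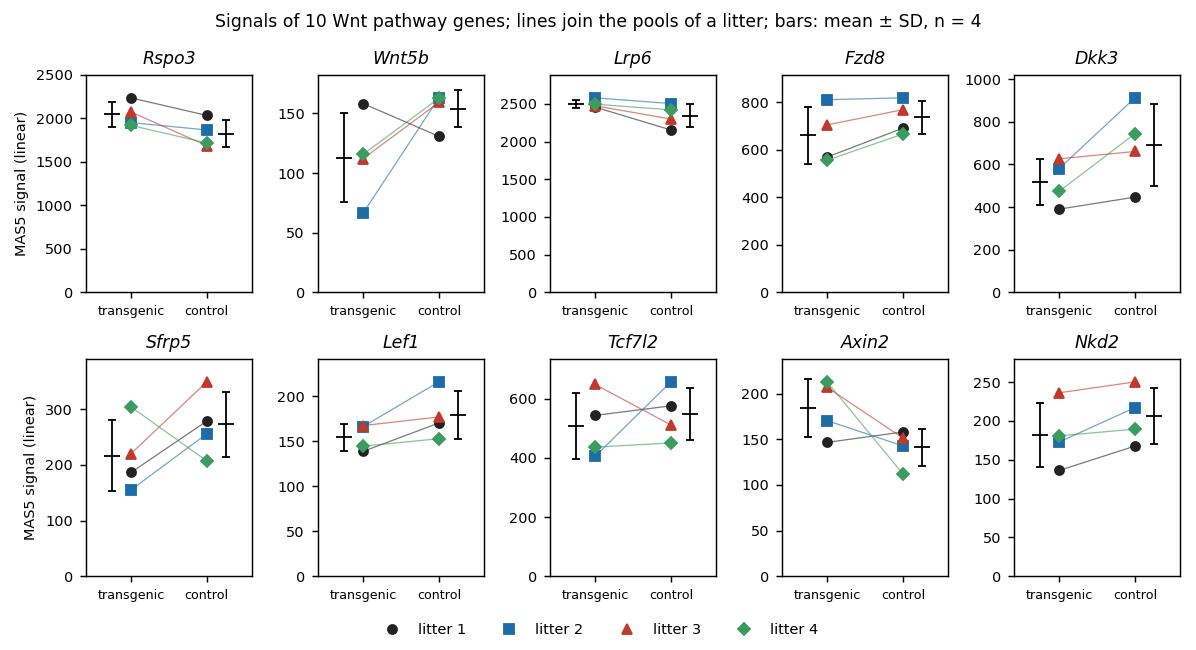
MAS5 signal (y axis, linear, from 0) of 10 genes, 2 per role, in transgenic arrays (left) and control arrays (right). Symbols mark litters, thin lines join the pools of a litter, and the bars beside the points are mean ± SD (n = 4). The groups overlap in every panel. In Rspo3, Lrp6, Fzd8, Dkk3, Lef1 and Nkd2 all 4 lines run the same way.

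The secreted antagonists, with the Dickkopf receptor Kremen1, had the lowest median of the groups, -0.08, with 3 of 9 tested genes higher and 6 lower. Dkk3, a Dickkopf family member that differs from the others in not acting mainly through Lrp6, gave 390.1, 581, 627 and 473 in transgenic arrays, against 447, 913, 661 and 744 in control arrays. The transgenic array was dimmer in all 4 litters, by most in litters 2 and 4. The groups averaged 518 ± 107 in transgenic arrays and 691 ± 194 in control arrays (SD, n = 4 each), with a log2 fold change of -0.37 (95% interval -0.78 to 0.03; exact permutation p = 0.20). With the litter as a block its interval was the narrower -0.62 to -0.12, with an unadjusted p of 0.0069 and an adjusted p of 0.82 in limma. Adding Xist to the fit, without the block, gave a log2 fold change of -0.32 (unadjusted p 0.23 in limma). A second probe set of Dkk3 gave -0.08 (95% interval -0.40 to 0.23) and was lower in 3 of 4 litters. The value of the chosen probe set was -0.56 without control replicate 1 and -0.23 without control replicate 2.

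Sfrp5, a secreted Frizzled-related protein, gave 186, 155, 220.2 and 304 in transgenic arrays, against 279, 256, 349 and 207 in control arrays. Litters 1, 2 and 3 were dimmer in the transgenic array, and litter 4, where the probe set shared by Hoxd4 and Hoxd3 went against the label, was brighter. A link between that probe set and Sfrp5 was not tested. The log2 fold change of Sfrp5 was -0.31 (95% interval -0.72 to 0.10; exact permutation p = 0.229) and -0.57 without litter 4, where the unadjusted p was 0.0082 and the adjusted p 1.0 in limma. With Xist in the fit it was -0.17. Sfrp2 and Kremen1 were lower in 4 of 4 litters, at -0.16 and -0.14. Frzb, Sfrp1, Sfrp4, Dkk2 and the Wnt-binding inhibitor Wif1 lay between -0.07 and 0.09, and Dkk1 was too dim.

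Beta-catenin, its destruction scaffold and the LEF/TCF factors had 5 of 6 genes tested, 1 higher and 4 lower, with a median of -0.04. The probe set used for the beta-catenin gene varied least of the 36, and its values are given for that reason. Ctnnb1 gave 19369, 19363, 18854 and 20283 in transgenic arrays, against 19373, 18972, 18921 and 18887 in control arrays, a coefficient of variation of 2.47% over the 8 arrays, where the median over all tested probe sets was 13.0%. Its log2 fold change was 0.03 (95% interval -0.07 to 0.14), and 2 further probe sets gave 0.03 and 0.08, with larger coefficients of variation of 5.43% and 10.3%. The control of beta-catenin acts on protein stability, which these arrays do not measure. Axin1, the scaffold of the complex that destroys it, was at -0.03, and Tcf7l1, mostly a repressor in the family, at -0.04.

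Lef1, a nuclear partner of beta-catenin and itself a target, gave 139, 166, 167 and 144 in transgenic arrays, against 170.1, 216, 177 and 153 in control arrays. It was dimmer in each litter's transgenic array, and the groups overlapped in the lower part of the control range (log2 fold change -0.18, 95% interval -0.51 to 0.16; exact permutation p = 0.143). Without control replicate 2 it was -0.10. Tcf7l2 gave 544, 405, 648 and 436 in transgenic arrays, against 576, 657, 511 and 450.3 in control arrays, with the transgenic array of litter 3 above and that of litter 2 far below its control. The log2 fold change was -0.11 (95% interval -0.44 to 0.21; exact permutation p = 0.543). It was 0.07 without litter 2 and -0.40 with Xist in the fit (unadjusted p 0.035, adjusted p 0.98 in limma), while 3 further probe sets lay between -0.04 and 0.00.

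Of the targets and feedback inhibitors 5 of 5 were tested, 1 higher and 4 lower, with a median of -0.01. Axin2, the feedback scaffold used as the usual readout of beta-catenin signaling, gave 147, 170.4, 207 and 213 in transgenic arrays, against 158, 143, 151 and 112 in control arrays. The transgenic array was brighter in litters 2, 3 and 4 and dimmer in litter 1, and the gap was widest in litter 4. The groups averaged 184 ± 31.3 in transgenic arrays and 141 ± 20.3 in control arrays (SD, n = 4 each), with a log2 fold change of 0.32 (95% interval -0.04 to 0.68; exact permutation p = 0.0857). The log2 fold change of Axin2 was 0.45 without litter 1 and 0.17 without litter 4, the litter where the probe set shared by Hoxd4 and Hoxd3 went against the label. A link between that probe set and Axin2 was not tested. Nkd2, a Dishevelled-binding inhibitor induced by the pathway, gave 136, 173, 236 and 181 in transgenic arrays, against 168, 217, 250.2 and 189 in control arrays. It ran lower in all 4 litters (log2 fold change -0.17, 95% interval -0.54 to 0.21; exact permutation p = 0.40), and another probe set gave 0.12. It was -0.06 without transgenic replicate 1, -0.28 without transgenic replicate 3 and -0.02 with its probe sets averaged. Nkd1, the membrane inhibitor Apcdd1 and Notum, an enzyme that strips the lipid from Wnt ligands, lay between -0.02 and -0.01. The other tested probe sets of Apcdd1 gave -0.21, -0.18, -0.14 and 0.04, and the one at -0.14 was lower in all 4 litters.

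The promoters of the genes at the ends of the range are shown because LEF/TCF factors bind runs of letters such as CTTTGAA. The search took CTTTGAA and CTTTGAT and, with T as the sixth letter, CTTTGTA and CTTTGTT, and ran on both strands, overlaps allowed, in the 250 bases before each gene start of the RefSeq promoter table (GRCm38.p6), which held 35 starts of 26 of the 41 genes. Capitals mark a match. The Axin2 stretch is chr11:108920099-108920348 on the plus strand and the Wnt5b stretch is chr6:119449387-119449636 on the minus strand, 1 of 3 listed starts of that gene and the one with a match.
Axin2: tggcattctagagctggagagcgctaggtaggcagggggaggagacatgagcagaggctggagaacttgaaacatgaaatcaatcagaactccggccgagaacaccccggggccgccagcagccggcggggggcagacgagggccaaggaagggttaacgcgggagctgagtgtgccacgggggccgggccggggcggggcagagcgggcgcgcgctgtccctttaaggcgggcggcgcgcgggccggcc
Wnt5b: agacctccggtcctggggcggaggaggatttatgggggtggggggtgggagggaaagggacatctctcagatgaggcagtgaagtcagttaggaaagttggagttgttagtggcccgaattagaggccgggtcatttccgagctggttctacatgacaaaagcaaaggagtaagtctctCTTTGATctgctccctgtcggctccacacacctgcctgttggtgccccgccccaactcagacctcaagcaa
In the Wnt5b stretch CTTTGAT begins 71 bases before the start, and the Axin2 stretch holds none of the 4. Over the listed starts 6 of 35 (17.1%) held a match, those of Wnt5b, Wnt11, Fzd7, Dkk1, Lef1 and Tcf7l2, against 14.8% of all 32851 promoters in the table. A match of these letters is not a site shown to be bound.

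The rest of the pathway was read the same way from a list of 113 other genes. Of these 107 had a probe set of their own and 74 were tested, 42 higher and 32 lower, with a median of 0.017. None passed an adjusted p of 0.05 in limma (0 of 74, and 0% of all probe sets), and 0 had an unadjusted p under 0.05, against 3.29% of all probe sets. With the litter as a block 1 of 74 had one (1.35%), Lgr6, against 5.54% of all probe sets. By role the medians were 0.02 for other ligands and their secretion (6 tested, no R-spondin among them) and 0.006 for receptors and polarity proteins (15). They were -0.09 for antagonists (3), 0.003 for the Dishevelled and destruction complex group (24), 0.03 for nuclear cofactors (17) and 0.03 for targets (9). In 6 of 74 (8.11%) all 4 litters ran the same way, against 27.8% of the 36 genes above and 13.4% of all probe sets. Among ligands the tested ones were few. Wnt1, Wnt2b, Wnt3, Wnt3a, Wnt8a, Wnt8b, Wnt9b, Wnt10a, Wnt10b, Rspo1 and Rspo4 were too dim. In limma with no filter Rspo1 gave -0.51 (unadjusted p 0.048), was lower in 4 of 4 litters, and its groups did not overlap. Wnt3a gave 0.67 in that fit (unadjusted p 0.087) and was higher in 4 of 4 litters.

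Some of these genes are named after their values were seen. Lgr6, a receptor for R-spondins, averaged 131 ± 34.5 in transgenic arrays and 184 ± 43.4 in control arrays (SD, n = 4 each), with a log2 fold change of -0.41 (95% interval -0.84 to 0.02), lower in 4 of 4 litters. Its relative Lgr4 averaged 3467 ± 358 in transgenic arrays and 3145 ± 264 in control arrays (SD, n = 4 each; log2 fold change 0.14, 95% interval -0.04 to 0.32). Tle3, a Groucho corepressor that LEF/TCF factors bind, was at -0.24 and Tle4 at 0.21, each the same way in 4 of 4 litters. The classical targets Ccnd1, a cyclin, and Myc, a growth-promoting transcription factor, were at -0.09 (95% interval -0.24 to 0.07) and 0.12 (95% interval -0.11 to 0.36).

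The litters were also compared. In the test of the 4 litters against each other, with the label in the fit, 0 of 36 genes passed an adjusted p of 0.05 in limma, against 0.484% of all probe sets. At an unadjusted p under 0.05 there were 7 genes (19.4%), Frzb, Notum, Dkk3, Rspo2, Sfrp1, Fzd9 and Fzd8, against 14.6% of all probe sets. The lowest adjusted p among them was 0.11, for Frzb.

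Frzb, the antagonist also called Sfrp3, gave 5253, 5019, 4139.5 and 4336 in the transgenic arrays of litters 1 to 4, against 5420.3, 4452, 3992 and 4329.9 in the control arrays. Both arrays of litter 1 were the brightest of their groups and both of litter 3 the dimmest, 1.31 times apart in the litter means (limma, unadjusted p = 0.0022, adjusted p = 0.11). A second probe set of Frzb had the same order of litters, from 3910.3 in litter 1 to 2998 in litter 3. Its log2 fold change between labels was 0.05 (95% interval -0.17 to 0.26).

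Dkk3 and Rspo2 were lowest in litter 1. The litter means of Dkk3 were 418, 747, 644 and 609, a 1.79-fold range (limma, unadjusted p = 0.0035, adjusted p = 0.13), and those of its second probe set were 340.4, 499, 484 and 451. Rspo2, an R-spondin of limb and skeleton, gave 285, 447, 477 and 373 in transgenic arrays, against 300.0, 522, 442 and 478 in control arrays, and litter 1 was the lowest in both (limma, unadjusted p = 0.0053, adjusted p = 0.15). Notum gave 357, 349.9, 522 and 439 in transgenic arrays, against 326, 354, 586 and 439 in control arrays, with litter 3 highest in both and 1.62 times the lowest (limma, unadjusted p = 0.0032, adjusted p = 0.13).

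Sfrp1, an antagonist of the same family as Frzb, gave 2826, 2850.0, 2697 and 2189.6 in transgenic arrays, against 2786, 3105, 2719 and 2493 in control arrays, with litter 4 lowest in both (limma, unadjusted p = 0.011, adjusted p = 0.21). Its other 4 probe sets did not share this order: 1 was lowest in litter 4, while 3 were lowest in litter 3, with litter means there of 1935, 463 and 1402 against 2199, 618 and 1765 in litter 4. Rspo2, Notum and Fzd9 had no second tested probe set. Fzd9 gave 1413, 1269, 1606 and 1288 in transgenic arrays, against 1473, 1385, 1698 and 1291 in control arrays, with litter 3 highest in both (limma, unadjusted p = 0.012, adjusted p = 0.21). Over the 36 genes litter 1 was lowest in 13 (36.1%, against 32.2% of all probe sets) and litter 4 in 14 (38.9%, against 23.4%).

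**Figure D3:**
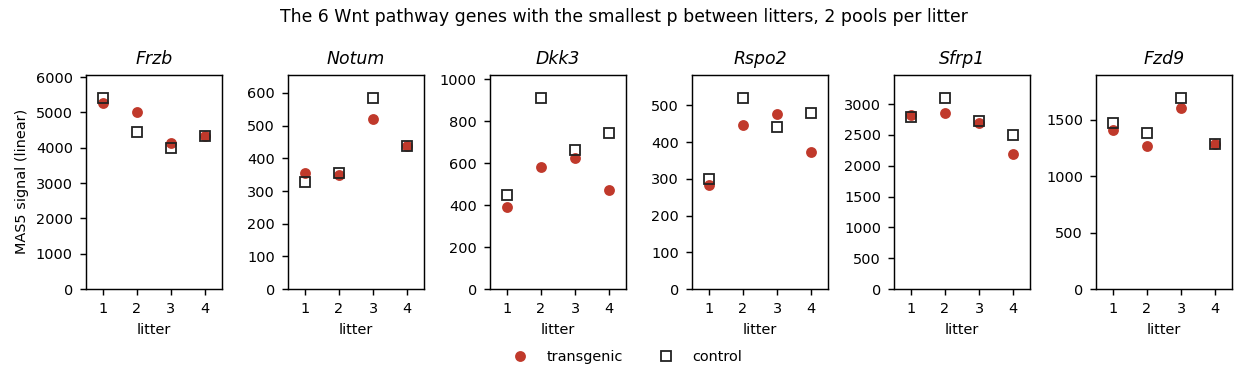
MAS5 signal (y axis, linear, from 0) by litter (x axis) for the 6 genes with the smallest p between litters, with transgenic arrays as filled circles and control arrays as open squares. In Frzb both pools of litter 1 are the brightest of their group, and in Dkk3 and Rspo2 both are the dimmest.

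Markers of other cells moved with the litters beside these genes. The summed signal was lowest in litter 1 for 7 of 10 marker lists, those of perichondrium and fibroblasts, osteoblasts, endothelium, muscle, erythroid cells, macrophages and tendon. The lists are not all separate: 95% of the osteoblast sum came from Col1a1, a collagen gene that the list of perichondrium and fibroblasts holds too, and 80.2% of the tendon sum came from Fmod. Litter 1 stood at 92.4% of the mean of the litters for perichondrium and fibroblasts (94.0% without Col1a1), 84.8% for endothelium and 66.8% for erythroid cells, and at 100.5% for chondrocytes. Between the labels the ranges of the sums overlapped in all lists. Erythroid markers summed to 5390.0, 7051, 10702.5 and 8923 in the transgenic arrays of litters 1 to 4 and to 6481, 7608, 13745 and 11217 in the control arrays, lower in every transgenic array, and the part of this in the genes that ran lower in 4 of 4 litters was not tested. Endothelial markers summed to between 2233 and 3129 in transgenic arrays and between 2688 and 3421 in control arrays. Their sum was lower in the transgenic array of litters 1, 2 and 4 and higher in that of litter 3. Of the 9 tested 6 were lower and 3 higher, with a median log2 fold change of -0.23, and 1 had an unadjusted p under 0.05 in limma. Perichondrial and fibroblast markers summed to between 167867 and 199173 in transgenic arrays and between 169572 and 191414 in control arrays. The part of these cells in the values of Frzb, Dkk3 and Rspo2 was not tested.

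**Figure D4:**
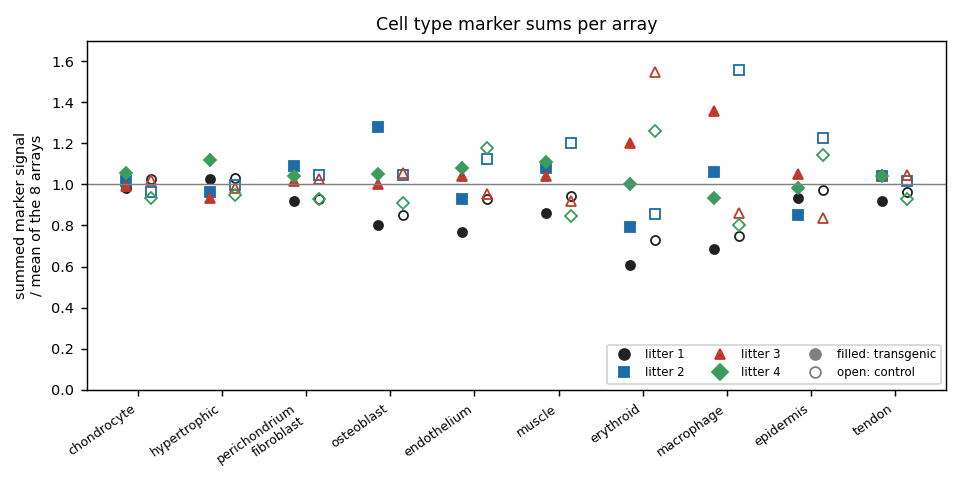
Summed signal of the markers of each cell type (x axis), divided by its mean over the 8 arrays (y axis, from 0), with filled symbols for transgenic arrays (left of each position), open symbols for control arrays and 1 symbol shape per litter. Litter 1 (black circles) averages 66.8% for erythroid cells and 84.8% for endothelium, and 100.5% for chondrocytes. The osteoblast sum is 95% Col1a1.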

How the data were processed

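The deposited values are probe set intensities from one-colour Affymetrix arrays, calculated by the authors in MAS5 (submitters' processing notes, no version named). The mean of each array without the top and bottom 2% was 500. Of 45101 probe sets, 64 controls of the manufacturer were left out, and 34945 of the others had 1 gene symbol in GEO's platform annotation, 932 several and 9160 none. Symbols looked up by identifier in RefSeq (GRCm38.p6) changed for 0. The constant of 32 in log2(signal + 32) came from the lower quartile of each array's signals, and shrinks changes of dim genes. Probe sets whose mean signal over 8 arrays exceeded the median entered lmFit and eBayes with an intensity trend (limma 3.58.1 under R 4.3.3, with statmod 1.5.0 for the random block). P-values were adjusted by Benjamini-Hochberg over all 22518, and litters were compared by a moderated F test. Single values had two-sided exact permutation tests over all arrays, and within litters as an alternative added after seeing the data.

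The pools of a litter share a number in the labels, which pairs the arrays. Correlations of their deviations from group means were 0.277, 0.169, 0.0407 and 0.138 for litters 1, 2, 3 and 4, and for litter 3 the highest with another litter was 0.0466. The sources used here state no model. The chosen fit left the litter out although the labels give it, and an alternative had it as a block. Other alternatives changed the constant, the filter, the normalization, the probe sets and the arrays used. Nothing says how many embryos a pool held, so p-values measure the spread between pools. Values in all arrays are given for genes whose chosen probe set had an unadjusted p under 0.05 or groups that do not overlap (there were 0). They are also given for the 2 genes of each role with the smallest p and the 6 with the smallest p between litters. Ctnnb1, Rspo1, Wnt3a, Celsr3, Lgr6, Lgr4, Tle3, Tle4, Ccnd1 and Myc were added after their values were seen. The genes, lists and tests were chosen with earlier results of these data known.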

Additional observations from a re-analysis of the deposited data

Results flagged for a closer look

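In 3 of 72 groups of 4 arrays, 1 array lay apart from the others by more than Dixon's limit for 4 values, and chance gives about 1 in 20 groups. Fzd2 was dim in transgenic replicate 2, at 1974, where the other transgenic arrays gave 2289.9, 2298 and 2308. Ror2 was dim in transgenic replicate 4, at 1065, against 1252, 1256 and 1264, and the control array of the same litter was also the dimmest of its group, at 1069. Wnt5b was dim in control replicate 1, at 131, where the other control arrays gave 159 to 163.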

How the results depend on the processing

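No gene of the 36 (40 with no filter, 19 with the stricter one, 31 without probe sets that can bind several transcripts) passed the adjusted threshold in any of 27 alternatives, whose lowest adjusted p was 0.41 (Dkk3, without litter 3 and with the litter as a block). The count with an unadjusted p under 0.05, 0 in the chosen fit, was 2 with the litter as a fixed or random replicate block (Rspo3 and Dkk3; 5.54% and 5.63% of all probe sets), 1 with no intensity trend (Axin2; 3.96%) and 2 with Xist as a covariate (Wnt5b and Tcf7l2; 4.88%). It ranged from 0 to 2 without single arrays (2.95% to 3.78% of all probe sets), from 0 to 3 without single litters (2.45% to 3.61%) and from 2 to 3 without single litters with the block (4.32% to 7.63%). It stayed at 0 with constants of 16 and 64, with no or a stricter filter, with quantile normalization, with probe sets averaged per gene and without probe sets that can bind several transcripts. The block changed no other call. Of the 10 genes named there, 8 kept their sign in every alternative that gave a value; of all 36, up to 10 changed sign without a single array (control replicate 3) and up to 9 without a single litter (litter 1). Of genes beyond 0.1 either way, Rspo2 did so without transgenic replicate 1, Wnt11 without litter 1, Wnt4 without litter 4 and Tcf7l2 without litter 2. Lrp6 turned to -0.03 with probe sets averaged, and Tcf7l2 to 0.07 without litter 2, with and without the block (-0.26 to 0.07 over the litters left out); the cause was not tested. The count of genes with 1 direction over the litters, 10, was 5 of 19 tested with the stricter filter, 8 with probe sets averaged, of which 7 were among the 10 (Fzd8, Lrp6 and Nkd2 dropped out and Apcdd1 came in), and 10, the same genes, under the other 3 alternatives; these were added after seeing the data. The 7 genes with an unadjusted p under 0.05 between litters (14.6% of all probe sets) were 4 to 9 without single litters (9.34% to 17.5% of all probe sets). Without litter 1 there were 4, with Frzb, Dkk3 and Rspo2 dropping out, and the share of all probe sets fell too, to 9.34%. Under the other alternatives they were 6 to 8 (9.96% to 19.4% of all probe sets). These counts were also added after seeing the data, and 0 passed the adjusted threshold in each. Dim signals limit what can be said of Wnt2, Wnt16, Lrp5 and Dkk1.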

Other observations

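Probe sets of 1 gene did not always run the same way. Of 22 genes with several tested probe sets, 9 had the same sign of the fold change in all of them and 13 did not. Sfrp1 had 5, of which one gave 0.19 (95% interval -0.03 to 0.42, higher in 4 of 4 litters) and one -0.02. The brightest, used above, gave -0.07 (95% interval -0.28 to 0.13), another gave 0.27 (95% interval 0.01 to 0.54, higher in 3 of 4 litters), with means of 1867 ± 353 in transgenic arrays and 1526 ± 148 in control arrays (SD, n = 4 each), and one more gave -0.31 (95% interval -0.67 to 0.04, lower in 4 of 4 litters), with 530.4 ± 129 in transgenic arrays and 662 ± 125 in control arrays (SD, n = 4 each). The one at 0.27 was the 1 tested probe set of the genes, beside those chosen by brightness, with an unadjusted p under 0.05 (0.046 in limma). Of all tested probe sets 3.29% had one. Of 22 probe sets too dim for the test 1 had such a p in the fit with no filter, that of Fzd6 at -1.21, and 0 an adjusted p under 0.05. In that fit 4.09% of all probe sets had an unadjusted p under 0.05, so 1 of 22 is close to the background. The parts of the transcript that the probe sets bind were not examined.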
